A study of Mus musculus with 6 samples.

Results

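Axon guidance ligands and receptors are the extracellular cues and surface receptors that steer growing axons, here the semaphorins, plexins, neuropilins, Slits, Robos, ephrins, Eph receptors, netrins, Unc5 receptors and Dcc. They were chosen by gene symbol from the probe sets that carried exactly 1 symbol, which gave 62 of 16380 genes, 30 ligands and 32 receptors, with 3 to 49 probe sets each. Nrp2 is not among them, because its 22 probe sets carried a second symbol. Slit3, Efna3, Sema3g, Sema4c, Plxnb3 and Ntn5 are not among them either, so counts by family cover the listed genes only. Epha6 was left out of the gene-level tests because its signal was below the floor of 5.019 for the lowest 10% of genes (4.24, 4.09 and 4.21 on the OBX arrays, against 4.29, 4.29 and 4.42 on the control arrays), so 61 genes were tested at the gene level.

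The tissue was olfactory epithelium of 3 male C57BL/6 mice, collected 5 days after unilateral olfactory bulbectomy (OBX), which cuts the axons of the olfactory sensory neurons (OSNs) of that side. The OBX group is the epithelium ipsilateral to the surgery and its control is the contralateral epithelium of the same animal, with an intact bulb, and each had 3 arrays. No transgene or drug was used beyond the surgery and anaesthesia. The labels give the mice as 8 weeks old and the methods give another age. The control side came from an operated animal, so no unoperated epithelium enters any comparison.

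New OSNs are produced throughout life from basal cells of the epithelium, and each sends an axon to the olfactory bulb. Class 3 semaphorins are secreted and act through neuropilins, which bind the ligand, and A plexins, which carry the signal into the cell. Slits act through Robos, ephrins through Eph receptors with signals in both directions, and netrins through Dcc and Unc5 receptors, and in the olfactory system such cues help to place OSN axons along the axes of the bulb. Many of these genes are also used by blood vessels, glia and epithelial cells.

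Each gene was measured as a log2 signal on the Affymetrix Mouse Exon 1.0 ST array. Every difference below is log2 OBX minus log2 control, averaged over 3 mice unless single mice are named. The standard error (SE) is that of the moderated limma fit, which also draws on the spread of other genes. It is therefore not the spread of the 3 mice alone. The test was limma's moderated two-sided test with mouse as a block, with p-values adjusted by Benjamini-Hochberg across all 14742 genes in the fit, and genes at an adjusted p under 0.05 were taken to have changed. Array medians over probe sets were close, at 8.465 to 8.65 on the OBX side and 8.463 to 8.605 on the control side. The labelled tissue had its defining markers: Omp (mature OSNs) was at 12.66 to 13.61 on the OBX arrays, against 14.19 to 14.28 on the control arrays, and Gap43 (immature OSNs, 12.28 to 12.61, against 12.28 to 12.46), Krt5 (horizontal basal cells, 11.10 to 11.44, against 10.91 to 10.97) and Cyp2g1 (sustentacular cells, 13.78 to 13.88, against 13.89 to 13.99) were high on both sides. Markers of mature OSNs were lower on the OBX side for 13 of 13 genes, and their mean signal was 10.43 to 11.35 on the OBX arrays, against 12.17 to 12.40 on the control arrays. Of the markers of dividing precursors 9 of 10 were higher (mean signal 9.06 to 9.30 on the OBX arrays, against 8.34 to 8.58 on the control arrays), as were 8 of 15 macrophage markers (8.89 to 9.83, against 8.25 to 8.65). Of 12 markers of immature OSNs 0 were higher and 1 was lower. Their mean signal was 10.62 to 11.00 on the OBX arrays, against 10.86 to 10.98 on the control arrays. The part of these cell types in the results that follow was not tested, and in whole tissue fewer cells of a type cannot be told apart from less RNA per cell.

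Guidance genes changed in both directions. On the OBX side 10 of the 61 were higher (16.4%) and 12 were lower (19.7%), where 9.89% of all genes tested were higher and 12.7% were lower. Guidance genes were read by a median of 22 probe sets, against 11 over all genes, and the effect of that on these shares was not tested. The median difference was 0.10 over the guidance genes and -0.01 over all genes, with 37 guidance genes positive and 24 negative, and 46 of 61 had the same sign in all 3 mice. Epha5, Plxna3, Epha7 and Plxna4 were lower by more than 2-fold, 4 genes where 5.6% of all genes were, and none was higher by more than 2-fold, where 0.258% of all genes were, so the guidance genes were near the whole array in both. Ligands gave 5 higher and 5 lower of 30, and receptors 5 higher and 7 lower of 31. All 3 OBX arrays lay above all 3 control arrays for 23 guidance genes and below them for 15, against 20.7% of all genes in each direction. Without mouse 3, 0 guidance genes were higher and 6 were lower (Epha5, Epha7, Plxna3, Plxna4, Sema7a and Slit1), while without mouse 1 they were 9 and 11 and without mouse 2 they were 10 and 12. The calls over all genes dropped with them, to 63 higher and 825 lower without mouse 3, against 1458 and 1877 with all mice.

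**Figure D1:**
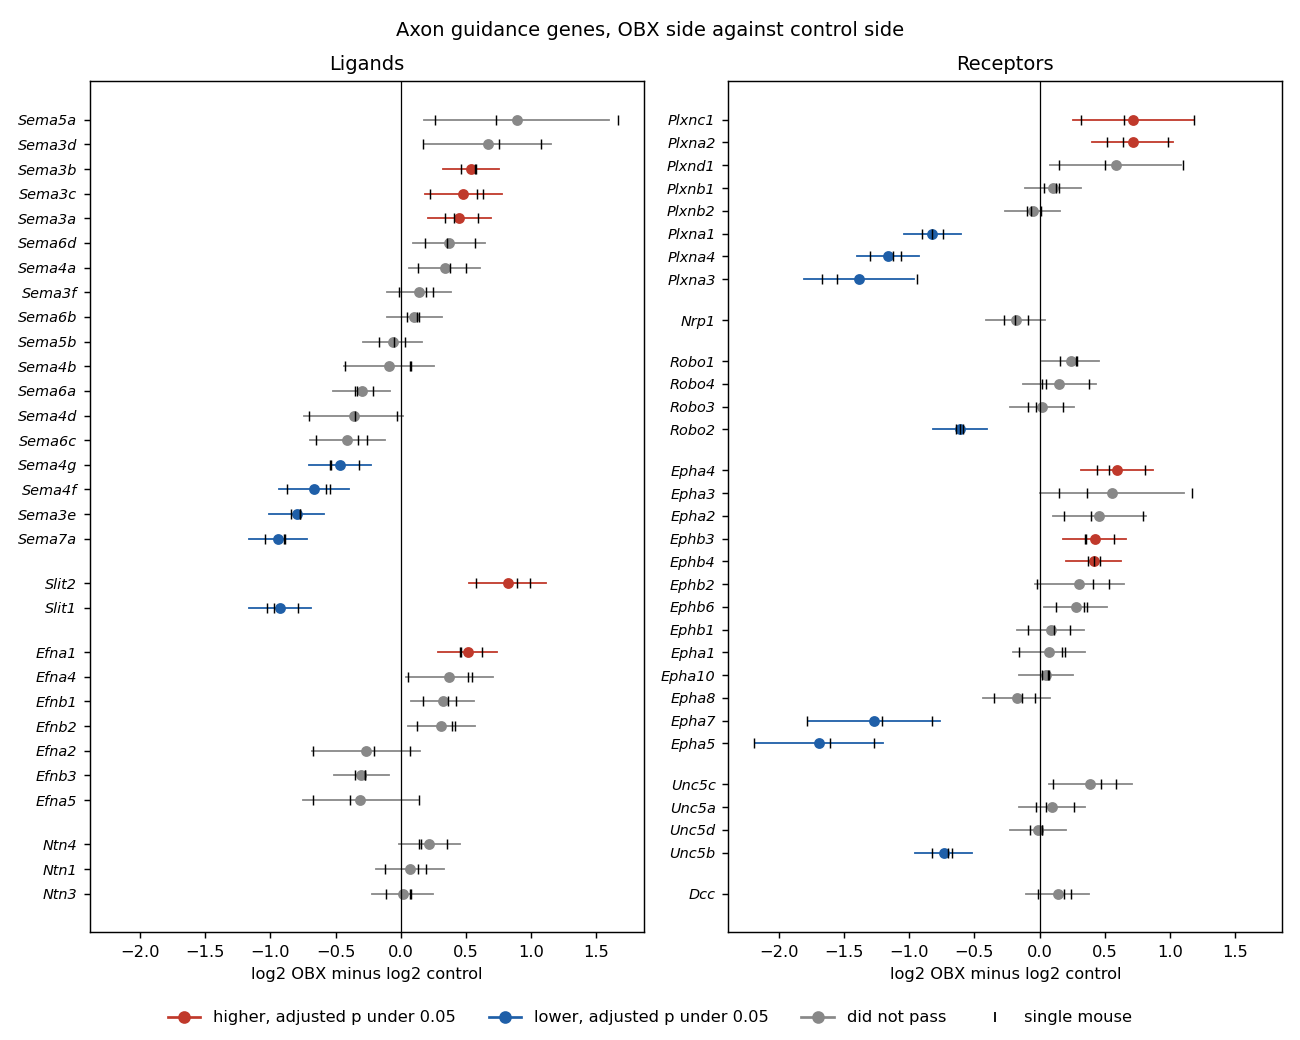
Differences (log2 OBX minus log2 control, x axis) of the 61 guidance genes tested, ligands on the left and receptors on the right, grouped by family, with dots for the mean of 3 mice, lines for the 95% confidence interval of the limma fit and ticks for single mice. The 12 genes that were lower reach -1.69 (Epha5), while the 10 that were higher end at 0.82 (Slit2).

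The number of genes called in each direction depended on the scaling of the arrays. Ribosomal protein genes had a median difference of 0.24 over 67 genes. When each array was centred on their median level, 5 guidance genes were higher and 12 lower, so that increases made up 29.4% of the calls in place of 45.5% (26.4% in place of 43.7% over all genes). When each array was scaled so that the median deviation of these genes from their own means was equal (scaling by ribosomal deviation), the median of all genes shifted to -0.24, that of the guidance genes to -0.13, and only Slit2 remained higher beside 16 lower genes, an increase share of 5.88% (5.76% over all genes). Both scalings shifted the 22 genes past the threshold downward, and the shares of the guidance genes followed those of the whole array. Centring took away calls in both directions over all genes, to 640 higher and 1786 lower, against 1458 and 1877 as deposited. Scaling by ribosomal deviation gave 247 higher and 4039 lower. The cause of these changes was not tested. None of the 22 genes past the threshold changed sign under any scaling run.

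**Figure D2:**
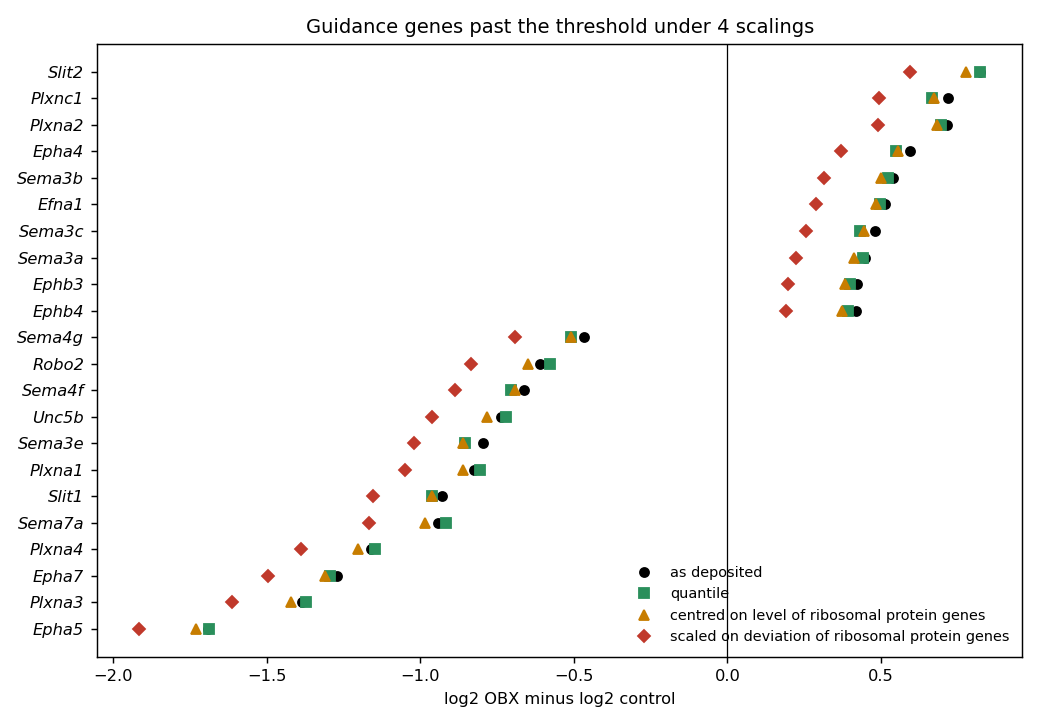
Differences (log2 OBX minus log2 control, x axis) of the 22 guidance genes past the threshold under 4 scalings of the arrays, each symbol a mean over 3 mice. The scaling by ribosomal deviation moves every gene to the left and leaves all 22 on their own side of 0.

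To set sequence beside these genes, the 250 bases upstream of the start sites were taken from RefSeq (GRCm38.p6), which gave 66 promoters for 52 of the 62 genes. Printed here are those of Epha5 and Plxna3, the receptors with the largest decreases, and of Slit2, the ligand with the largest increase past the threshold, each 5′ to 3′ on the strand of its gene. Only genes with a single promoter in that source could be printed. All 3 stretches lie inside the RefSeq span of their gene, which begins further upstream, so other start sites are not covered. Capitals mark a match to TAATTA, the core bound by many homeodomain proteins, in Epha5, and a match to CCCNNGGG, a form of the Olf-1/Ebf motif, in Plxna3.
Epha5, chr5:84417383-84417632, minus strand: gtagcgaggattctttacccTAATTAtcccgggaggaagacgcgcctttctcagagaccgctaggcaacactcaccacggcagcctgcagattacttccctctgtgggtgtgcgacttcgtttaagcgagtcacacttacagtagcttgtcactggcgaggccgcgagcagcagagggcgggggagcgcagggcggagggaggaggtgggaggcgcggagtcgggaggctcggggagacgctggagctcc
Plxna3, chrX:74328816-74329065, plus strand: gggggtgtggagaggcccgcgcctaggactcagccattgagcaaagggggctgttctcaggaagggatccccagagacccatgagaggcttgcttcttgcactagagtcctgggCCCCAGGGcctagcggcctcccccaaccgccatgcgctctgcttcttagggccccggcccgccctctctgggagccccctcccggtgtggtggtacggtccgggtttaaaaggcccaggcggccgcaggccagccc
Slit2, chr5:47982905-47983154, plus strand: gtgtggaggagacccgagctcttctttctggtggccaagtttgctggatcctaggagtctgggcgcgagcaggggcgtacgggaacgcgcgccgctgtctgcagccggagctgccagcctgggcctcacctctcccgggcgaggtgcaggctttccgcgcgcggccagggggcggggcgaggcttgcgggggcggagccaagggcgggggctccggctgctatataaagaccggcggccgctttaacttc
All 3 stretches were rich in G and C (62.4% in Epha5, 68% in Plxna3 and 69.6% in Slit2), above the median of 52.4% over all 32851 promoters, and the median of the guidance genes was 64.2%. CCCNNGGG, which reads the same on both strands as do the other motifs searched, was found in 16.7% of guidance promoters, against 11.8% of all promoters, and among the genes that changed in Plxna3 and Robo2 (lower) and Efna1 (higher). TAATTA was found in 4.55% of guidance promoters, against 4.84% of all, in Epha5 (lower) and Efna1 (higher). The E-box CAGCTG was found in 13.6%, against 13% of all, in Robo2, Sema4g and Sema7a (lower) and Ephb3 (higher). Each motif was found in genes of both directions. With 10 promoters of higher genes and 12 of lower genes, these few matches cannot show whether a motif goes with a direction. The matches are letters in a window and not sites of binding.

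Of the 18 semaphorins tested 3 were higher and 4 lower. Of the 6 class 3 semaphorins tested, which are secreted, 3 were higher and 1 was lower, with a median difference of 0.46. Of the 12 membrane-bound semaphorins tested, of classes 4 to 7, none was higher and 3 were lower, with a median of -0.20. A difference between the classes was not tested.

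Sema3b, a secreted semaphorin that binds neuropilins, had signals of 9.36, 9.30 and 9.23 on the OBX arrays of mice 1, 2 and 3, against 8.89, 8.72 and 8.64 on their control arrays. Sema3a, the best known axon repellent of its class, had 10.04, 9.87 and 10.21 on the OBX arrays, against 9.63, 9.53 and 9.61 on the control arrays. Sema3c, which acts on neurons and on vessels, had 7.13, 6.87 and 7.0 on the OBX arrays, against 6.49, 6.64 and 6.41 on the control arrays. In all 3 genes every OBX array lay above every control array, and the differences were small. Sema3b was 1.45-fold higher (0.54 ± 0.08 SE, adjusted p = 0.0156), Sema3a was 1.37-fold higher (0.45 ± 0.09, adjusted p = 0.0320) and Sema3c was 1.40-fold higher (0.48 ± 0.11, adjusted p = 0.0434), Sema3c only just within the threshold. With arrays scaled by ribosomal deviation none of these 3 passed.

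Sema3e, which unlike its relatives binds Plxnd1 directly, ran the other way, with 7.01, 6.79 and 6.77 on the OBX arrays, against 7.86, 7.57 and 7.54 on the control arrays. It was lower by a similar amount in each mouse (-0.85, -0.78 and -0.77) and 1.74-fold lower on average (-0.80 ± 0.08 SE, adjusted p = 0.00606). Its receptor Plxnd1 had 8.63, 9.23 and 8.52 on the OBX arrays, against 8.48, 8.12 and 8.01 on the control arrays. These Plxnd1 arrays did not overlap either, but the difference of 0.58 (95% CI 0.08 to 1.09) did not pass (adjusted p = 0.0952), and mouse 2 alone gave 1.10. The remaining class 3 genes, Sema3d (0.67, adjusted p = 0.0640) and Sema3f (0.14, adjusted p = 0.330), did not pass either.

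Sema7a, a semaphorin tethered to the membrane by a lipid anchor, had 11.01, 10.56 and 10.69 on the OBX arrays, against 11.91, 11.60 and 11.58 on the control arrays. The groups were far apart relative to their spread, and the gene was 1.92-fold lower (-0.94 ± 0.09 SE, adjusted p = 0.00488). Its known receptors are Plxnc1 and integrins that contain Itgb1. Plxnc1 had 7.43, 7.95 and 7.38 on the OBX arrays, against 7.11, 6.77 and 6.74 on the control arrays. Plxnc1 was therefore higher where its ligand was lower (0.72 ± 0.18 SE, 1.65-fold, adjusted p = 0.0483), the last gene within the threshold, and its OBX array of mouse 2 was the highest. Plxnc1 failed the threshold under 11 of the 17 alternatives, whereas Sema7a failed under 1, the adjusted t-test of the methods. Itgb1 was at 11.93, 12 and 12.05 on the OBX arrays, against 11.63, 11.62 and 11.57 on the control arrays, and was higher too (0.39 ± 0.09 SE, adjusted p = 0.0373).

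Of the transmembrane class 4 semaphorins, Sema4f had 8.13, 7.57 and 8.01 on the OBX arrays, against 8.71, 8.45 and 8.55 on the control arrays. Sema4g had 8.01, 7.89 and 7.82 on the OBX arrays, against 8.56, 8.20 and 8.36 on the control arrays. Neither gene overlapped between sides. Sema4f was 1.58-fold lower (-0.66 ± 0.10 SE, adjusted p = 0.0163) and Sema4g 1.38-fold lower (-0.47 ± 0.09 SE, adjusted p = 0.0289). Sema4a (0.34), Sema4b (-0.09) and Sema4d (-0.36) did not pass. No member of classes 5 and 6 passed. Sema6c, whose class signals through A plexins, lay just outside the threshold, with 8.27, 7.69 and 8.09 on the OBX arrays, against 8.53, 8.33 and 8.42 on the control arrays (-0.41, adjusted p = 0.0585). Its OBX arrays were all below the control arrays, as were those of no other gene of these classes. Sema5a had the largest positive difference of all 61 genes (0.89) and still did not pass, because its mice differed widely (0.27, 1.67 and 0.73, adjusted p = 0.0794).

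All 4 A plexins, which transmit class 3 and class 6 semaphorin signals, passed the threshold, 3 lower and 1 higher. Plxna4 had 9.68, 9.16 and 9.66 on the OBX arrays, against 10.74, 10.46 and 10.79 on the control arrays. Plxna3 had 9.46, 8.69 and 9.13 on the OBX arrays, against 10.40, 10.36 and 10.69 on the control arrays. Plxna1 had 10.27, 9.92 and 10.20 on the OBX arrays, against 11.02, 10.82 and 11.03 on the control arrays. In each of these 3 genes mouse 2 had the lowest OBX signal and the sides did not overlap. Plxna3 was 2.62-fold lower (-1.39 ± 0.16 SE, adjusted p = 0.00859), Plxna4 2.24-fold lower (-1.16 ± 0.09 SE) and Plxna1 1.77-fold lower (-0.82 ± 0.09 SE, adjusted p = 0.00616). Plxna4 had the smallest adjusted p of all guidance genes (0.00354).

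Plxna2, which binds class 6 as well as class 3 ligands, was the exception, with 8.88, 9.15 and 8.77 on the OBX arrays, against 8.36, 8.16 and 8.13 on the control arrays. It was higher in each mouse (0.52, 0.98 and 0.64), 1.64-fold on average (0.71 ± 0.12 SE, adjusted p = 0.0188), and did not pass with arrays centred or scaled on ribosomal protein genes. Nrp1, the ligand-binding partner of A plexins, had 10.05, 9.97 and 10.10 on the OBX arrays, against 10.24, 10.06 and 10.38 on the control arrays. Its arrays overlapped, and the difference of -0.18 (95% CI -0.41 to 0.04, adjusted p = 0.192) did not pass. That interval does not reach the 2-fold decreases of Plxna3 and Plxna4. Plxnb1 (0.10) and Plxnb2 (-0.05), receptors of class 4 semaphorins, did not pass, with intervals of -0.11 to 0.32 and -0.27 to 0.16.

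**Figure D3:**
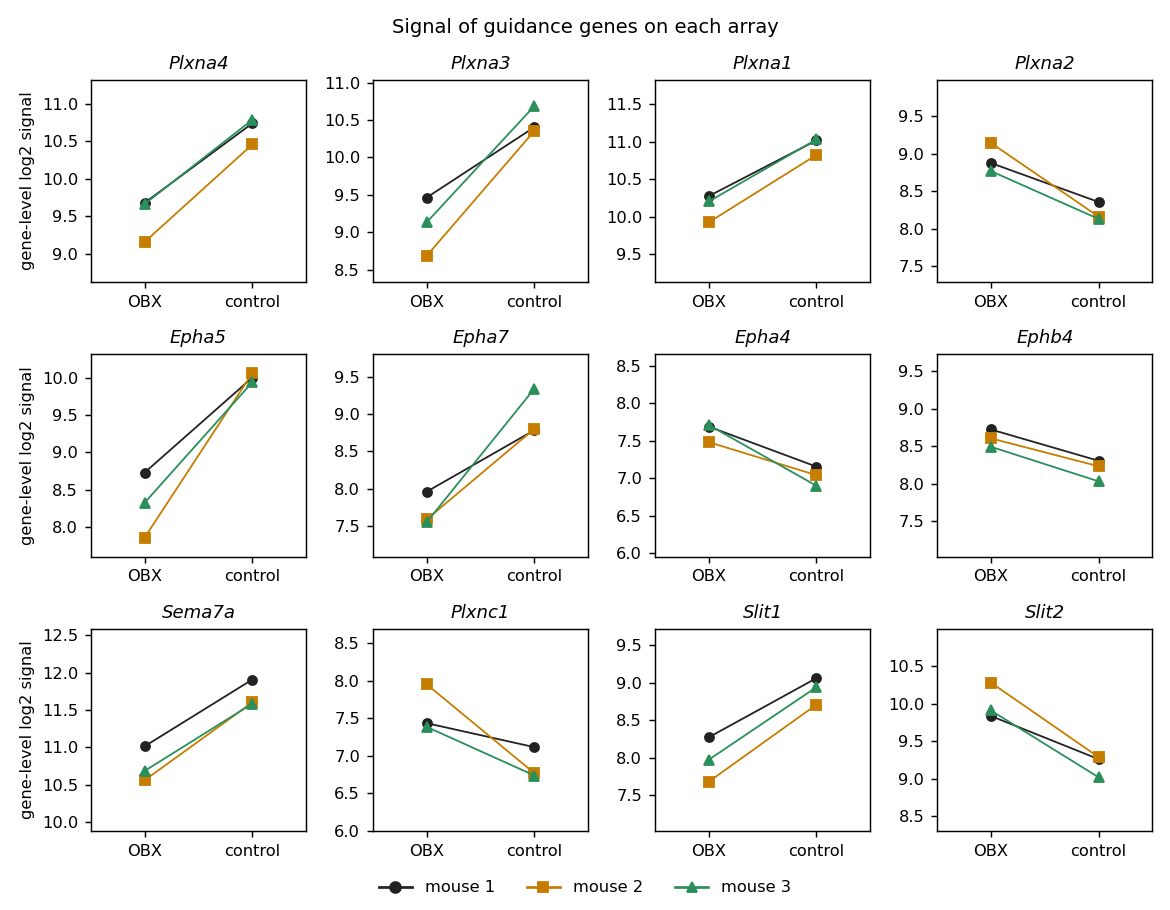
Gene-level log2 signal (y axis, spans of equal height) of 12 guidance genes on each array, OBX on the left and control on the right, with lines joining the sides of a mouse. Plxna4, Plxna3, Plxna1, Epha5, Epha7, Sema7a and Slit1 are lower on the OBX side in all 3 mice, and Plxna2, Epha4, Ephb4, Plxnc1 and Slit2 are higher in all 3.

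The 2 Slits tested, secreted repellents that bind Robos, moved in opposite directions. Slit1 had 8.27, 7.68 and 7.97 on the OBX arrays, against 9.06, 8.71 and 8.94 on the control arrays. Slit2 had 9.83, 10.28 and 9.91 on the OBX arrays, against 9.26, 9.29 and 9.02 on the control arrays. Neither gene overlapped between sides, and mouse 2 held the lowest Slit1 and the highest Slit2 signal on the OBX side. Slit1 was 1.90-fold lower (-0.93 ± 0.09 SE, adjusted p = 0.00582) and Slit2 1.77-fold higher (0.82 ± 0.11 SE, adjusted p = 0.0119). Markers of fibroblasts (3 of 9 higher, mean signal 10.49 to 10.97 on the OBX arrays, against 9.81 to 10.16 on the control arrays) had a mean signal that was also higher on every OBX array, as had those of dividing precursors, horizontal basal cells, sustentacular cells, Bowman's glands, macrophages, endothelial cells and mural cells. Their part in the Slit2 increase was not tested.

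Robo2, a Slit receptor of OSN axons in the mouse, had 10.47, 10.25 and 10.56 on the OBX arrays, against 11.11, 10.86 and 11.15 on the control arrays. The change was nearly equal in the 3 mice (-0.64, -0.61 and -0.59), and Robo2 was 1.53-fold lower (-0.61 ± 0.08 SE, adjusted p = 0.0109). Robo1, another Slit receptor, had 10.49, 10.41 and 10.52 on the OBX arrays, against 10.34, 10.13 and 10.23 on the control arrays. Its OBX arrays were all higher, but the difference of 0.24 (95% CI 0.02 to 0.46) did not pass (adjusted p = 0.107). Robo3 (0.02) and Robo4 (0.15), an endothelial Robo, did not pass. Endothelial markers were higher for 1 of 12 genes, with a mean signal of 7.65 to 8.29 on the OBX arrays, against 7.20 to 7.59 on the control arrays.

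Epha5 and Epha7, receptors of A ephrins that take part in mapping axons onto their targets, had the largest and the third largest decrease. Epha5 had 8.73, 7.86 and 8.33 on the OBX arrays, against 10, 10.06 and 9.94 on the control arrays. Epha7 had 7.96, 7.59 and 7.56 on the OBX arrays, against 8.79, 8.80 and 9.34 on the control arrays. The OBX arrays of Epha5 spread more widely (SD 0.43) than its control arrays (SD 0.06). For Epha7 the spread was on the control side, where mouse 3 was the highest. Epha5 was 3.23-fold lower (-1.69 ± 0.19 SE, adjusted p = 0.00767) and Epha7 2.41-fold lower (-1.27 ± 0.20 SE, adjusted p = 0.0153).

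Epha4, which binds ephrins of both classes, had 7.69, 7.48 and 7.71 on the OBX arrays, against 7.15, 7.04 and 6.90 on the control arrays. Among the receptors of B ephrins, Ephb4, known from veins, had 8.72, 8.60 and 8.49 on the OBX arrays, against 8.30, 8.23 and 8.03 on the control arrays. Ephb3, known from epithelial stem cell niches, had 8.76, 8.64 and 8.79 on the OBX arrays, against 8.41, 8.28 and 8.22 on the control arrays. All 3 genes were higher on every OBX array than on any control array. Epha4 was 1.51-fold higher (0.60 ± 0.11 SE, adjusted p = 0.0224), Ephb4 1.34-fold (0.42 ± 0.08 SE, adjusted p = 0.0278) and Ephb3 1.34-fold (0.42 ± 0.09 SE, adjusted p = 0.0359). All 5 EphB genes had positive differences under the deposited scaling, and 4 of 5 with arrays scaled by ribosomal deviation, under which neither Ephb3 nor Ephb4 passed. The other 8 Eph receptors did not pass, with differences of -0.17 (Epha8) to 0.56 (Epha3).

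Of the 7 ephrins tested, Efna1, an A ephrin common in epithelium and vessels, was the only gene past the threshold. It had 8.34, 8.18 and 8.26 on the OBX arrays, against 7.88, 7.72 and 7.63 on the control arrays. The sides did not overlap, and Efna1 was 1.43-fold higher (0.51 ± 0.09 SE, adjusted p = 0.0196). Efnb3, a transmembrane ephrin, was just outside, with 7.08, 7.12 and 7.08 on the OBX arrays, against 7.43, 7.39 and 7.36 on the control arrays (-0.30, adjusted p = 0.0585). Efna5, a ligand of Epha5 and Epha7, had 9.46, 9.82 and 9.48 on the OBX arrays, against 10.14, 9.68 and 9.87 on the control arrays. It was lower in mice 1 and 3 and higher in mouse 2, and its difference of -0.31 (95% CI -0.75 to 0.13, adjusted p = 0.252) did not pass.

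In the netrin system only Unc5b passed. Unc5b, a netrin receptor that mediates repulsion and is also found on vessels, had 9.54, 9.28 and 9.34 on the OBX arrays, against 10.37, 9.96 and 10.05 on the control arrays. It was lower in each mouse and 1.67-fold on average (-0.74 ± 0.09 SE, adjusted p = 0.00805). Unc5c had separate sides and a difference of 0.39 (95% CI 0.07 to 0.71) that did not pass (adjusted p = 0.0832), and Unc5a (0.10) and Unc5d (-0.01) did not pass either. Dcc, the attractive netrin receptor, was low on every array, at 5.97, 5.70 and 6.08 on the OBX side, against 5.73, 5.72 and 5.89 on the control side. Its difference of 0.14 (95% CI -0.10 to 0.38, adjusted p = 0.337) did not pass. Ntn4, a netrin of basement membranes, had 8.83, 8.43 and 8.66 on the OBX arrays, against 8.47, 8.29 and 8.50 on the control arrays (0.22, 95% CI -0.02 to 0.46, adjusted p = 0.150). Dcc and Ntn4 changed sign with arrays scaled by ribosomal deviation. Ntn1, the founding ligand, was at 0.07 (95% CI -0.19 to 0.33) and Ntn3 at 0.01.

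The other genes of these pathways were read from a list of 104 coreceptors, further ligands with some of their receptors, and effectors, of which 90 were tested. On the OBX side 17 were higher (18.9%) and 13 lower (14.4%), against 9.89% and 12.7% of all genes, with a median difference of 0.15. The list was chosen with earlier results of these data known. It holds genes that the paper names as changed, such as Crmp1, Dpysl2 and Itgb1. Its shares are therefore a description and no test of these pathways. Among coreceptors and related adhesion receptors, Kirrel3, which sorts OSN axons in the mouse, was lower (-1.25 ± 0.09 SE, adjusted p = 0.00290), with 8.44, 7.76 and 8.28 on the OBX arrays, against 9.57, 9.12 and 9.55 on the control arrays. Lingo1, a component of the Nogo receptor complex, was lower (-1.15, adjusted p = 0.00280), as were Flrt1 (-0.93), a relative of the Unc5 ligand Flrt2, and Dscam (-0.93), a receptor that can bind netrin. Flrt2 itself was higher (0.77 ± 0.08 SE, adjusted p = 0.00710), as was Chl1 (0.65), a partner of Nrp1 in Sema3a signals. Among further ligands and their receptors Lrrc4c (0.67), which binds a netrin G, and Cxcr4 (0.57), the chemokine receptor of Cxcl12, were higher. Among the effectors, with 5 higher and 6 lower of 49, Pak3 (-1.14), a kinase downstream of Rac and Cdc42, was lower. Crmp1 (-0.50) and Dpysl2 (-0.37), which relay Sema3a signals to microtubules, were lower too. The related Dpysl3 (0.28, adjusted p = 0.0895), Dpysl4 (0.02) and Dpysl5 (0.13) did not pass. Plxdc2 (0.63), which was on the list of effectors but is a transmembrane protein with a plexin-like domain, was higher. The coreceptors had both directions in nearly equal number (7 higher and 6 lower of 21). The list of further ligands, which also held receptors such as Cxcr4, had 5 higher and 1 lower of 20. Over the whole list 0 were higher and 6 lower without mouse 3, 9 were higher without mouse 1 and 8 were lower without mouse 2, and with arrays scaled by ribosomal deviation 2 were higher and 20 lower.

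Since each gene was read by many probe sets, most of them within single exons, the probe sets of a gene were also compared with each other. In a test of unequal change along the gene (limma's diffSplice with the Simes method) 11 of 61 guidance genes passed, where 7.99% of 13357 genes did. The guidance genes had a median of 22 probe sets, against 11 over all genes, and the effect of that on the rates was not tested. Epha6 is among these 61 and Efna2, with 3 probe sets, is not. This test shares a single spread among the probe sets of a gene, and on simulated arrays with unequal spread it made too many calls. Those arrays had no mouse effect and kept the lowest 10% of probe sets by signal, which the test on the data left out. When each probe set was given its own spread, 0 guidance genes and 0 of all 13357 genes passed, against 10 guidance genes and 2032 genes at an unadjusted p under 0.05, but on simulated arrays this stricter form also missed the genes that had been altered, so its 0 calls say little. The values below are therefore a description. Without mouse 2 the first test passed 5 guidance genes (4.42% of all genes), and without mouse 3 it passed 2 (1.13% of all genes).

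In Sema3a 21 of 22 probe sets were positive (0.05 to 0.70) and a single probe set was negative, with 4.89, 4.47 and 5.25 on the OBX arrays, against 5.78, 5.87 and 5.58 on the control arrays (-0.87). Its signal was dim, at percentile 11.4 of all probe sets. In Slit1 39 of 41 probe sets were negative, to -1.39, and a pair differed by only 0.03 and 0.04. The brighter of the pair had 10.05, 9.98 and 10.15 on the OBX arrays, against 10.12, 10.03 and 9.90 on the control arrays, so the sides overlapped at a signal at percentile 77.4. In Epha5 all 20 probe sets were negative, with a median of -1.73, and the 2 that changed least stood at -0.35 and -0.50. In Slit2 all 46 were positive, between 0.30 and 1.74. In Ephb4 22 of 24 were positive, and the 2 furthest from the rest were at -0.39 and 1.14. In Plxna1, Sema7a and Unc5b every probe set was negative and 1 probe set changed less than the rest, at -0.18, -0.31 and -0.15 in that order of genes. In Sema3b 1 of 22 was negative (-0.15). In Sema6b and Plxnb1, which did not pass as whole genes, the probe set set apart was at -1.02 and at 0.63.

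**Figure D4:**
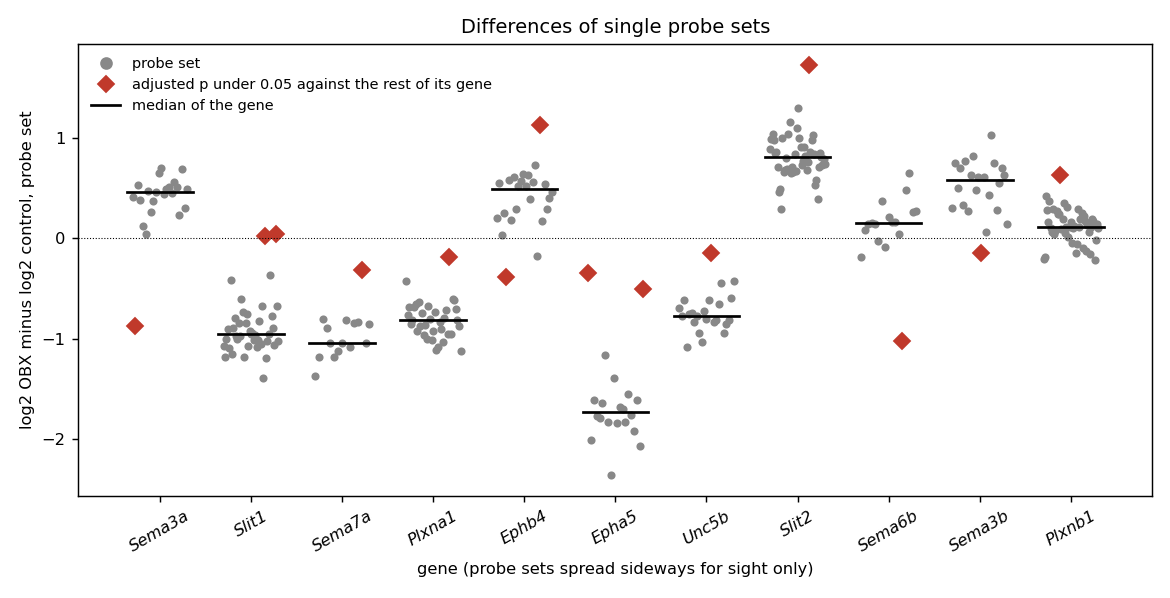
Differences (log2 OBX minus log2 control, y axis) of single probe sets in the 11 guidance genes past the diffSplice threshold, with diamonds for probe sets that differed from the rest of their gene and bars for the median of the gene. In most genes a single probe set stands away from the rest, as in Sema3a (-0.87).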

How the data were processed

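Total RNA of 6 olfactory epithelia was measured on 6 arrays. The authors deposited log2 signals, which came from RMA in Affymetrix Expression Console, that is, background-corrected, normalized between arrays and summarised per probe set. For versions and genome build, the sources used here give none. There were 229581 probe sets with values of 1.2 to 15.17. The methods describe gene-level values, so that step was repeated with median polish (Tukey) of the 209279 probe sets with exactly 1 symbol (4446 had several and 15856 were not named). Of 16380 symbols 14190 were current in RefSeq, 2120 were updated, 25 were kept and 45 were not in that table. The lowest 10% of genes by mean signal were left out. The fit used limma 3.58.1 under R 4.3.3 and figures were drawn with matplotlib 3.10.9. Exon usage used genes with at least 4 probe sets.

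Sides were paired by the number in the sample titles, which do not say that it stands for the mouse. The methods describe both sides of 3 mice and paired tests, so the number was read as the mouse. After removal of side means, Pearson's r across genes between the sides was -0.07, 0.27 and 0.24 in mice 1, 2 and 3. Differences between sides correlated between mice at 0.69 to 0.83. The number of mice, 3, limits precision. Members and lists were chosen with earlier results of these data known. Values of all arrays are given for genes past the threshold, the nearest 2 on either side of it, neuropilins and partners of named genes. Beyond these, Sema5a, Plxnd1, Robo1, Efna5, Unc5c and the sequences printed were chosen after their values were seen. The fits were tested on simulated arrays. Alternatives changed the block, test, filter, scaling, gene-level step or mice. Centring of genes, scaling by ribosomal deviation and the probe set's own spread were added after seeing the data.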

Additional observations from a re-analysis of the deposited data

How the results depend on the processing

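None of the 22 guidance genes past the threshold changed sign under the alternatives run (17, or 16 for Sema3c), nor did the 10 partners and effectors with the smallest p, 5 in each direction. The other partners were not rerun singly. Epha5, Epha7, Plxna3, Plxna4, Sema7a and Slit1 passed under all but the methods' t-test after Benjamini-Hochberg, under which 0 guidance genes were higher and 0 lower (23 at an unadjusted p under 0.05), as were 0 and 0 of the partners and effectors (17 and 17 unadjusted). Over all 14742 genes that t-test passed 1, and 3855 had an unadjusted p under 0.05. Without the pairing (no mouse block) 13 guidance genes were higher and 12 lower, and exon usage was called for 6 genes. Over all genes 1285 were then higher and 1543 lower, and exon usage was called for 4.61%. With the median of probe sets 5 guidance genes were higher (934 of all genes), and 8 partners were higher and 8 lower. Centred on ribosomal protein genes 5 guidance genes and 5 partners were higher. Scaled on their deviation 1 guidance gene was higher, 2 partners were higher and 20 lower, and Dcc (-0.0857) and Ntn4 (-0.0057) changed sign. Leaving out each mouse in turn gave 0 to 10 higher and 6 to 12 lower guidance genes, 0 to 12 higher and 6 to 10 lower partners, and 2 to 9 genes with exon usage. Over all genes exon usage was then called for 1.13% to 8.88%, against 7.99% with all mice. Leaving out mouse 3 gave each lowest value: without it 0 guidance genes were higher and 6 lower. Exon usage was called for 5 genes by the F test (4.49% of all genes) and for 0 with each probe set's own spread (0% of all genes). Sema6c and Efnb3 passed under 5 and 6 alternatives. The cause of these changes was not tested. With 3 mice, small differences could not be detected, and a gene that missed the threshold is not shown to be unchanged.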
